A study of Ovis aries with 30 samples.

Results

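Glycolysis turns glucose into pyruvate, and pyruvate then either becomes lactate or enters the mitochondria as acetyl-CoA. Expression of 38 genes of this route was described in perirenal brown adipose tissue (BAT) and in the thyroid gland of newborn lambs, chosen by name as rows of the deposited count table. All 38 were among the 28524 genes of the table. They cover glucose uptake (SLC2A1, SLC2A3), the enzymes from hexokinase to pyruvate kinase, the PFKFB enzymes that set the level of fructose-2,6-bisphosphate, lactate dehydrogenase and the lactate transporters (LDHA, LDHB, SLC16A1, SLC16A3), the mitochondrial pyruvate carrier (MPC1, MPC2) and the pyruvate dehydrogenase (PDH) complex with its kinases (PDK1 to PDK4) and phosphatases (PDP1, PDP2).

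The libraries came from 15 Romney lambs, 1 of each twin pair, with BAT from around the kidneys and thyroid tissue of each lamb, giving 30 libraries. 6 lambs were kept indoors for 2 days at 4 °C (cold), 6 for 2 days at 20 to 22 °C (ambient temperature, AT), and 3 controls were sampled soon after they had been brought indoors, which was within 24 h after birth. No lamb carried a transgene or received an agent, and each treatment group held males and females. Because treatment lasted 2 days, treated lambs were also older than controls, so temperature and age cannot be told apart against the controls, and only cold against AT compared lambs of the same age. The study left 1 control lamb out of both tissues, and the same lamb (control 2) was left out of the main comparisons here, which rest on controls 1 and 3. All comparisons of treated lambs with controls share these 2 lambs.

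As background, brown fat burns fatty acids and glucose for heat and loses this capacity in lambs soon after birth. Glucose enters cells through facilitated transporters, of which SLC2A1 and SLC2A3 need no insulin. Phosphofructokinase is the main control point of glycolysis, and fructose-2,6-bisphosphate activates it. The PDH complex commits pyruvate to oxidation, the PDK enzymes phosphorylate it and switch it off, and the PDP enzymes reverse this. PDK4 is the member of the kinase family best known to rise in fasting and with fatty acid use. Several steps have a muscle form (PFKM, PGAM2, ENO3, and much of HK2), so these genes also report skeletal muscle in a tissue piece.

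BAT libraries held 31556500 to 37025998 counts each, and thyroid libraries 25062784 to 30124871. The 2 genes with the most BAT reads, both without a symbol, together held a median of 63.2% of BAT counts, so the other genes were read less deeply than these totals. Values below are normalised counts, that is counts divided by a size factor from the reference genes ACTB, RPL19 and HUWE1. A gene was called when edgeR's quasi-likelihood test gave a Benjamini-Hochberg adjusted p below 0.05 over all genes tested and a log2 fold change (log2FC) of at least 1 in size. In BAT 37 members passed the filter on low counts (PGAM2 did not), and in the thyroid 37 (PFKFB1 did not). Each tissue carried its own markers, with thyroid follicular genes summing to between 1.35e+06 and 5.97e+06 normalised counts in every thyroid library and to 1563 at most in BAT, and adipocyte genes to between 26980 and 278867 in BAT and to 11246 at most in the thyroid. 2 thyroid libraries stood apart for skeletal muscle. Skeletal muscle markers (14 of 15 listed genes were in the table, and none was at 0 in either library) summed to 3.83e+06 in AT 3, which is 9.25% of its counts, and to 350494 in control 1, against 304 to 4659 in the other 13 thyroid libraries and 352 to 971 in BAT. Control 2 stood apart in BAT, with brown adipocyte markers at 92488 against 23229 and 27105 in the other controls. Most of this sum was UCP1, at 87969 against 20733 and 22621. Among the controls, PPARGC1A and DIO2 were also highest in control 2, while CIDEA, ELOVL3 and PRDM16 were lowest there. In the thyroid too control 2 differed, with parathyroid markers (3 genes) at 9381 against 32.5 to 1275 in the other thyroid libraries. PPARGC1A was at 11366 there, against 566 to 2298. Results that rest on these libraries are given with and without them. In pieces of tissue, fewer cells of a type and less RNA per cell cannot be told apart.

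Levels of different genes were compared per kilobase of exon. GAPDH, ALDOA and LDHB were the 3 highest members in both tissues, with median levels per kilobase of 16059, 10343 and 8311 in BAT and of 6650, 3664 and 2779 in the thyroid (14 libraries each, both tissues on one scale). HK2 was the lowest in both, at 7.16 and 3.48. Of the HK1 and HK2 level nearly all was HK1, with a median share of 98.4% in BAT and 99.2% in the thyroid. HK3, which is not a member, was left out of this share. Its median normalised counts were 144 in cold and 157 in AT lambs in BAT, and 173 and 122 in the thyroid, above those of HK2. Liver-type PFKL was the main phosphofructokinase transcript, with a median share of 61.6% in BAT and 68.6% in the thyroid. The platelet type PFKP came next in BAT (27.5%) and the muscle type PFKM in the thyroid (23.1%).

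In BAT of AT lambs against controls, 6 members were called lower and 1 higher. The lower ones were both glucose transporters (SLC2A1, SLC2A3), 1 of 3 phosphofructokinase genes (PFKL), 1 of 3 enolase genes (ENO1), 1 of 2 lactate dehydrogenase genes (LDHA) and 1 of 2 lactate transporters (SLC16A3), and the higher one was PFKFB1. Over all 14905 genes tested, 3.21% were called lower and 2.86% higher. The median log2FC of the members was -0.29, beside -0.03 over all genes, with 13 members above 0 and 24 below. With the adjusted p alone, 9 members were lower, adding HK1, PGK1 and PGAM1 with log2FC of -0.84, -0.85 and -0.90, against 6.15% of all genes.

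SLC16A3 encodes MCT4, a lactate exporter of glycolytic cells, on chr11:12460782-12472317 (Oar_rambouillet_v1.0, plus strand). Its normalised counts in BAT were 809 in control 1, 394 in control 3 and 308 in control 2. The AT lambs ran from 97.8 to 192 (median 119) and the cold lambs from 153 to 330 (median 277). All AT and all cold lambs lay below the 2 controls used, and the cold group overlapped control 2. The log2FC was -2.23 ± 0.29 (SE) in AT against control (adjusted p = 0.000725), the lowest p among the members. In cold lambs it was -1.20 ± 0.30 (adjusted p = 0.056), short of the threshold.

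Of the glucose transporters, SLC2A3 (GLUT3), on chr3:222584545-222597190, had 1636 normalised counts in control 1, 3268 in control 3 and 1599 in control 2. It lay between 297 and 1223 (median 722) in AT lambs and between 1058 and 2561 (median 1491) in cold lambs. The AT lambs thus lay below all 3 controls, while cold lambs overlapped them. Its log2FC was -1.76 ± 0.38 in AT against control (adjusted p = 0.0125) and -0.67 ± 0.40 in cold against control (adjusted p = 0.397). SLC2A1 (GLUT1) was much less abundant, at 236 and 142 in controls 1 and 3 and 741 in control 2. It lay between 44.7 and 85.6 (median 73.1) in AT lambs and between 63.1 and 114 (median 90.9) in cold lambs, and neither treated group reached any control. The log2FC was -1.46 ± 0.29 in AT lambs (adjusted p = 0.00851) and -1.07 ± 0.29 in cold lambs (adjusted p = 0.068).

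Among the enzymes, PFKL, the liver-type phosphofructokinase, had 3205 and 3384 normalised counts in controls 1 and 3 and 4156 in control 2. It lay between 726 and 1856 (median 1047) in AT lambs and between 1074 and 2078 (median 1405) in cold lambs. Both treated groups lay below every control, with log2FC of -1.55 ± 0.29 (adjusted p = 0.00676) and -1.11 ± 0.30 (adjusted p = 0.0656). The other phosphofructokinase genes did not pass the test. PFKM had 118 and 136 in controls 1 and 3 and 152 to 348 in AT lambs (log2FC 0.85, adjusted p = 0.106), and PFKP had a log2FC of 0.33 (adjusted p = 0.651). LDHA, the muscle-type lactate dehydrogenase subunit that favours lactate formation, had 4515 and 3884 in controls 1 and 3 and 7377 in control 2, against 976 to 2421 (median 1359) in AT and 1402 to 4156 (median 2895) in cold lambs. Its log2FC was -1.48 ± 0.35 in AT lambs (adjusted p = 0.0168), and AT lambs lay below all controls. ENO1, the general enolase, fell by 1.04 ± 0.25 on the log2 scale in AT lambs (adjusted p = 0.0212), from 11186 and 7719 in the controls used to between 3933 and 5436.

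LDHB, the heart-type subunit, did not follow LDHA. It had 6474 and 7020 normalised counts in controls 1 and 3, between 4293 and 13799 in AT lambs and between 5341 and 8300 in cold lambs, and its log2FC in AT lambs was 0.43 (adjusted p = 0.43). LDHA made up 28.2% and 33.2% of the LDHA and LDHB level per kilobase in the 2 controls used. The median was 24.5% (14.8% to 27.7%) in cold lambs and 10.3% (4.79% to 22.8%) in AT lambs. Control 2 is not part of these shares. It had 27346 normalised counts of LDHB, the highest of the BAT libraries, beside 7377 of LDHA, so a higher LDHA share in controls is shown for controls 1 and 3 only.

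PFKFB1, the liver form of the enzyme that makes and breaks fructose-2,6-bisphosphate, was the member called higher in AT lambs. It had 438, 130 and 217 normalised counts in controls 1, 2 and 3. In AT lambs 5 of 6 lay between 927 and 1827, and AT 6 was at 395, below control 1. Its log2FC was 1.99 ± 0.50 (adjusted p = 0.0233). The other 3 PFKFB genes had log2FC between 0.15 and 0.50 in AT lambs, and none of them passed the test.

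**Figure D1:**
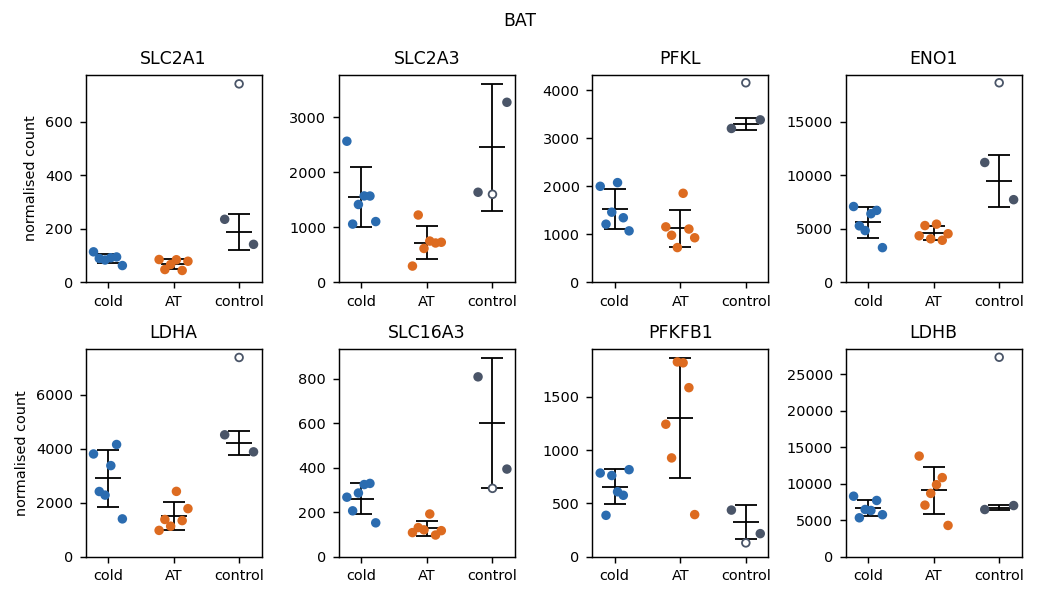
Normalised counts in BAT of the 7 members called in AT against control, and of LDHB, by group. Points are libraries, the open point is control 2, and bars are the mean ± SD of the 6 cold, the 6 AT and the 2 controls used. AT lambs lie below every control for the first 6 genes, and 5 of the 6 AT lambs lie above every control for PFKFB1.

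These calls leaned on both controls. Without control 1, SLC2A3 and SLC16A3 were called (log2FC -2.18 and -1.62), and without control 3, SLC2A1 and SLC16A3 (log2FC -1.76 and -2.64), so SLC16A3 was the member called either way. ENO1 was also lost without AT 3 and under TMM scaling, where its log2FC was -0.95. With all 3 controls, 15 members were called lower (2.99% of all genes) and 2 higher (5.74%), PFKFB1 and ENO3. Markers of other cells moved too. Endothelial markers (4 genes) summed to 46782 and 41543 in controls 1 and 3, to between 25339 and 34869 in AT lambs and to between 32460 and 47404 in cold lambs. In control 2 they summed to 13338, below every treated lamb. Brown adipocyte markers (6 of 7 listed genes in the table) summed to between 749 and 16643 in AT and between 4822 and 16846 in cold lambs. These sums were below the controls in both groups, but the control sums were mostly UCP1. Of the listed genes only UCP1 and ELOVL3 lay below controls 1 and 3 in every treated lamb. PRDM16 was higher in AT lambs, at 149 to 366 against 95.6 and 132 in controls 1 and 3. The part of all these markers in the results was not tested.

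In BAT of cold lambs against controls, no member was called, against 1.21% of all genes, and 12 of 37 members had an unadjusted p under 0.05, as had 18.1% of all genes. The log2FC of the members had a median of -0.41 beside -0.10 over all genes, with 25 of 37 below 0. SLC16A3, PFKL and SLC2A1 came nearest, with the values above. DESeq2 called these 3 lower (1.42% of all genes), and TMM scaling called PFKL and SLC16A3 (0.611%). Calls also appeared without AT 6 (the same 3), without AT 4 (PFKL and SLC16A3) and without cold 3 (SLC16A1, at -1.09). With all 3 controls 6 members were called lower (2.16% of all genes) and ENO3 higher (2.7%).

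Cold against AT asks what temperature changed at one age. In BAT no member was called, 0.275% of all genes were, and 8 of 37 members had an unadjusted p under 0.05, as had 12.3% of all genes. 4 genes with the lowest p were higher in cold lambs. SLC16A3 had a log2FC of 1.02 ± 0.23 (adjusted p = 0.0811), ALDOC, a brain-type aldolase, 1.19 ± 0.29 (adjusted p = 0.111), SLC2A3 1.10 ± 0.30 (adjusted p = 0.146) and LDHA 0.95 ± 0.26 (adjusted p = 0.16). The groups overlapped in each: SLC16A3 was above the highest AT lamb (192) in 5 of 6 cold lambs, and ALDOC above the highest AT lamb (53.9) in 5 of 6. PFKFB1 went the other way, with 389 to 817 in cold and 395 to 1827 in AT lambs (log2FC -0.99, adjusted p = 0.242). TMM scaling called SLC16A3 and ALDOC (adjusted p = 0.04 and 0.0448, against 0.282% of all genes called higher), and DESeq2 also called SLC2A3 (adjusted p = 0.0202, against 0.496%). Leaving out 1 library called 1 member in 3 cases: PFKFB1 without AT 6 (log2FC -1.19), SLC2A3 without AT 2 (1.31) and SLC16A3 without cold 6 (1.15). The shares of all genes called in these 3 cases are not given. The log2 ratio of LDHA to LDHB was -1.76 ± 0.44 (SD, n = 6) in cold and -3.06 ± 0.89 in AT lambs, a difference of 1.30 with exact permutation p = 0.0108, or 0.13 after adjustment over 12 ratio tests.

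PDK4 (chr4:14709622-14723348, minus strand) encodes the PDH kinase that shuts pyruvate out of oxidation. In BAT the controls had 4079 (control 1), 43821 (control 2) and 2460 (control 3) normalised counts. The cold lambs had 5422, 8346, 2596, 4176, 8665 and 3987, and the AT lambs 2677, 1765, 1254, 6623, 2667 and 1109. Control 2 was far above every other BAT library, while control 1 lay within the range of both treated groups and control 3 within that of AT lambs and below every cold lamb. No contrast of BAT called PDK4 with controls 1 and 3: the log2FC was 0.76 ± 0.61 in cold (adjusted p = 0.55) and -0.29 ± 0.58 in AT lambs (adjusted p = 0.794). With control 2 added the sign in cold lambs turned, to -1.57 (adjusted p = 0.197), and PDK4 was called in AT lambs, at -2.61 (adjusted p = 0.0281). In AT lambs the value was negative with and without control 2, and 0.13 without control 1.

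Cold against AT does not involve the controls. The mean of log2 normalised PDK4 counts (pseudocount 1) in BAT was 12.31 ± 0.67 (SD, n = 6) in cold and 11.11 ± 0.94 in AT lambs, a difference of 1.20 with a two-sided exact permutation p = 0.039. Across all genes the same contrast had a log2FC of 1.04 ± 0.42 and an adjusted p of 0.338. With 1 lamb left out, the exact p was above 0.05 in 8 of 12 cases (cold 1, cold 2, cold 5, AT 1, AT 2, AT 3, AT 5 and AT 6) and ranged from 0.013 to 0.0779, so PDK4 is reported as not called. 5 of 6 cold lambs lay above 5 of 6 AT lambs, and AT 4, at 6623, was above 4 cold lambs.

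**Figure D2:**
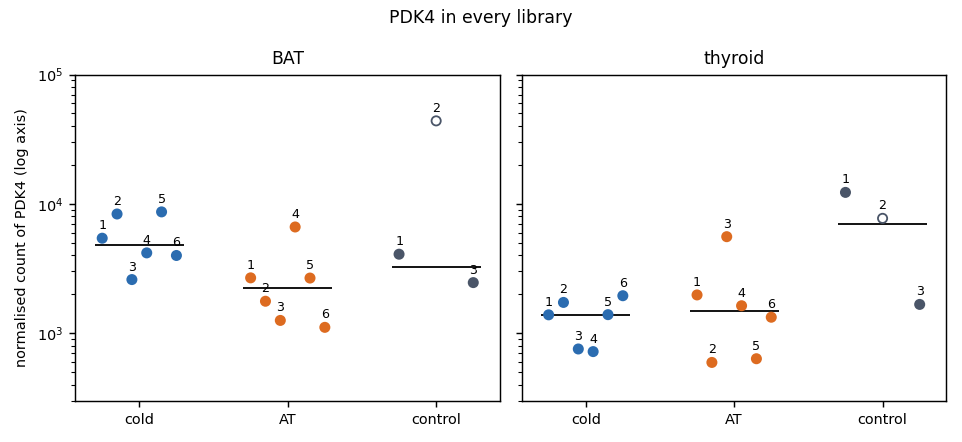
Normalised counts of PDK4 in every library of BAT and thyroid on a log axis, with the replicate number beside each point. Open points are control 2, and horizontal lines are medians, over controls 1 and 3 for the controls. The 3 controls lie between 2460 and 43821 in BAT and between 1668 and 12262 in the thyroid.

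In the thyroid the controls had 12262 (control 1), 7723 (control 2) and 1668 (control 3) normalised counts of PDK4. The cold lambs lay between 720 and 1947 (median 1388) and the AT lambs between 594 and 1975, apart from AT 3 at 5573. Control 3 fell within the cold and AT ranges, and the high values were those of controls 1 and 2 and AT 3. PDK4 was called lower in cold against control, with a log2FC of -2.40 ± 0.75 (adjusted p = 0.0428), and not in AT against control, -1.83 ± 0.76 (adjusted p = 0.102). In AT against control it was called without AT 3 (-2.51, adjusted p = 0.00978), with control 2 in place of control 3 (-2.36, adjusted p = 0.0274) and with controls 2 and 3 without AT 3 (-1.92, adjusted p = 0.0216), and the value was 0.22 without control 1 and -0.44 without AT 3 and control 1. The cold call held when AT 2, AT 3 or AT 5 was left out and was lost when any other library was. Without control 1 the value was -0.34 (adjusted p = 0.829), and without AT 3 and control 1 together it was -0.35 (adjusted p = 0.715). In cold against AT, PDK4 had a log2FC of -0.56 (adjusted p = 0.934), and 0.10 without AT 3.

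Genes of pyruvate entry other than PDK4 gave no calls in BAT with controls 1 and 3. No other PDK gene, no PDP gene, no subunit gene of the complex (PDHA1, PDHB, DLAT) and neither carrier gene was called in any of the 3 contrasts. The nearest was PDK1 in AT against control, at -1.03 ± 0.36 (adjusted p = 0.0760). With all 3 controls, PDK1 (-1.27, adjusted p = 0.0234) and DLAT (-1.01, adjusted p = 0.0219) were called lower in AT lambs. PDHA1 overlaps MAP3K15 on the opposite strand over 266 bases, 6.5% of its exon length, and reads there could belong to either gene.

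In the thyroid 18 of 38 members were higher in AT 3 than in each of the 13 libraries other than AT 3 and control 1, 9 were higher in control 1, and 7 in both. The same counts were not taken over all genes, so these numbers do not set the members apart from other genes. The muscle forms stood out. ENO3, muscle enolase (chr11:36920912-36927261), had 39178 normalised counts in AT 3 and 7227 in control 1, against 56.6 to 283 in the other 13. PGAM2, muscle phosphoglycerate mutase, had 10794 and 757, against 52.9 to 164. PFKM, muscle phosphofructokinase, had 22873 and 1824, against 280 to 1012, and HK2 2371 and 1370, against 10.9 to 72.7. In AT 3 the general forms were high as well, with ALDOA at 99816, GAPDH at 96899 and LDHA at 21070. These genes were high where the muscle markers were, and the part of muscle in them was not tested further. No member was called in thyroid cold against AT with or without them (0% of all genes). An unadjusted p under 0.05 was found for 7 of 37 members and 5.40% of all genes with them, and for 2 members and 4.65% of all genes without them.

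**Figure D3:**
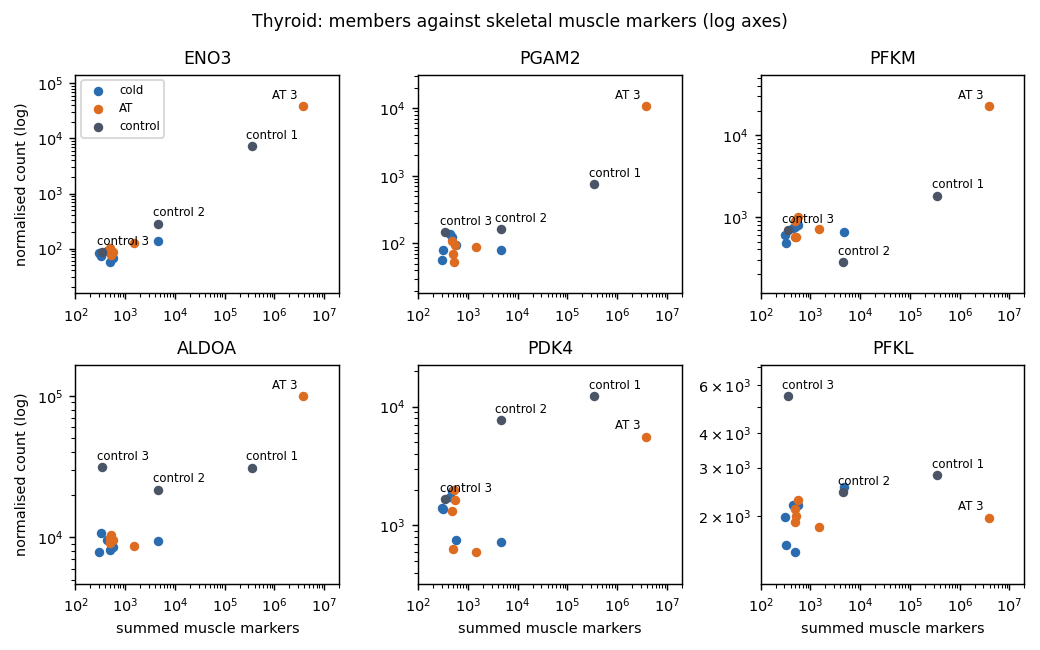
Normalised counts of 6 members in the 15 thyroid libraries (vertical) against the summed normalised counts of 14 skeletal muscle markers (horizontal), both on log axes and coloured by group. AT 3 and control 1 lie far to the right and are highest for ENO3, PGAM2 and PFKM. For PFKL the highest library is control 3, whose muscle markers sum to 349.

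Against controls, several thyroid members were lower in treated lambs. In cold lambs 6 members were called lower, GPI, PFKL, PFKFB2, PGAM1, ENO1 and PDK4, and none higher, while 6.15% of all genes were called lower. In AT lambs PFKL, PFKFB2 and PGAM1 were called lower, beside 5.98% of all genes. With the adjusted p alone the counts were 7 and 5 lower, against 16.9% and 18.7% of all genes. Of 37 members, 34 had a log2FC below 0 in cold and 30 in AT lambs, with medians of -0.90 and -0.37. All genes together had a median of -0.28 in both contrasts under reference-gene scaling and of 0.02 and 0.05 under TMM scaling, so about 0.3 of each log2FC here is shared with the typical gene. Under TMM only PGAM1 was called, in both contrasts, against 2.08% and 1.67% of all genes.

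PGAM1, phosphoglycerate mutase, had 6180, 2226 and 8514 normalised counts in controls 1, 2 and 3, between 2592 and 3495 in cold lambs and between 2080 and 3866 in AT lambs. The treated lambs lay below controls 1 and 3 but not below control 2. The log2FC was -1.37 ± 0.20 in cold (adjusted p = 0.00169) and -1.47 ± 0.20 in AT lambs (adjusted p = 0.00104). PFKL had 2813, 2440 and 5481 in controls 1, 2 and 3, against 1471 to 2545 in cold and 1826 to 2289 in AT lambs, with log2FC of -1.06 ± 0.22 and -1.04 ± 0.22 (adjusted p = 0.00686 and 0.0063). PFKFB2, the heart form of the PFKFB family, had 1595, 1056 and 2562 in the controls, 740 to 1109 in cold and 697 to 1217 in AT lambs, with log2FC of -1.10 ± 0.23 and -1.17 ± 0.23 (adjusted p = 0.00651 and 0.00389). HK1, the main hexokinase, fell by 0.86 and 0.995 on the log2 scale (adjusted p = 0.00375 and 0.0017), just short of the fold threshold. Control 3 was the highest control for each of these 4 genes, and without it no member was called in either contrast. PFKL was also lost without cold 1 or cold 6 in the cold contrast and without AT 2 in the AT contrast.

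Setting aside AT 3 and control 1 widened the difference, but left control 3 as the one control. 17 members were then called lower in cold and 18 in AT lambs, against 14.1% and 16.8% of all genes, and no member was called higher. PKM, TPI1, ALDOA, GPI and PGAM1 led, with log2FC between -1.94 and -1.59 in cold and between -1.83 and -1.70 in AT lambs. ALDOA had 31195 normalised counts in control 3, against 7822 to 10747 in cold lambs and 8646 to 10442 in the 5 other AT lambs. Under TMM scaling 7 members were called in each contrast, against 4.02% and 4.18% of all genes, and TPI1, PKM, GPI, PGAM1 and ALDOA were among them both times. With control 2 added to control 3, 10 and 11 members were called lower, against 9.21% and 8.85% of all genes, with TPI1 at -1.80 and -1.61 and ALDOA at -1.55 and -1.45. Other markers also set control 3 apart: follicular genes summed to 5.97e+06 against 1.35e+06 to 2.92e+06 in the other thyroid libraries, and endothelial markers to 25845 against 7405 to 17798. Macrophage markers (4 of 6 listed genes in the table) were lower in controls 1 and 3 (1468 and 1395) than in treated lambs (2483 to 8620). Their part in these results was not tested.

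**Figure D4:**
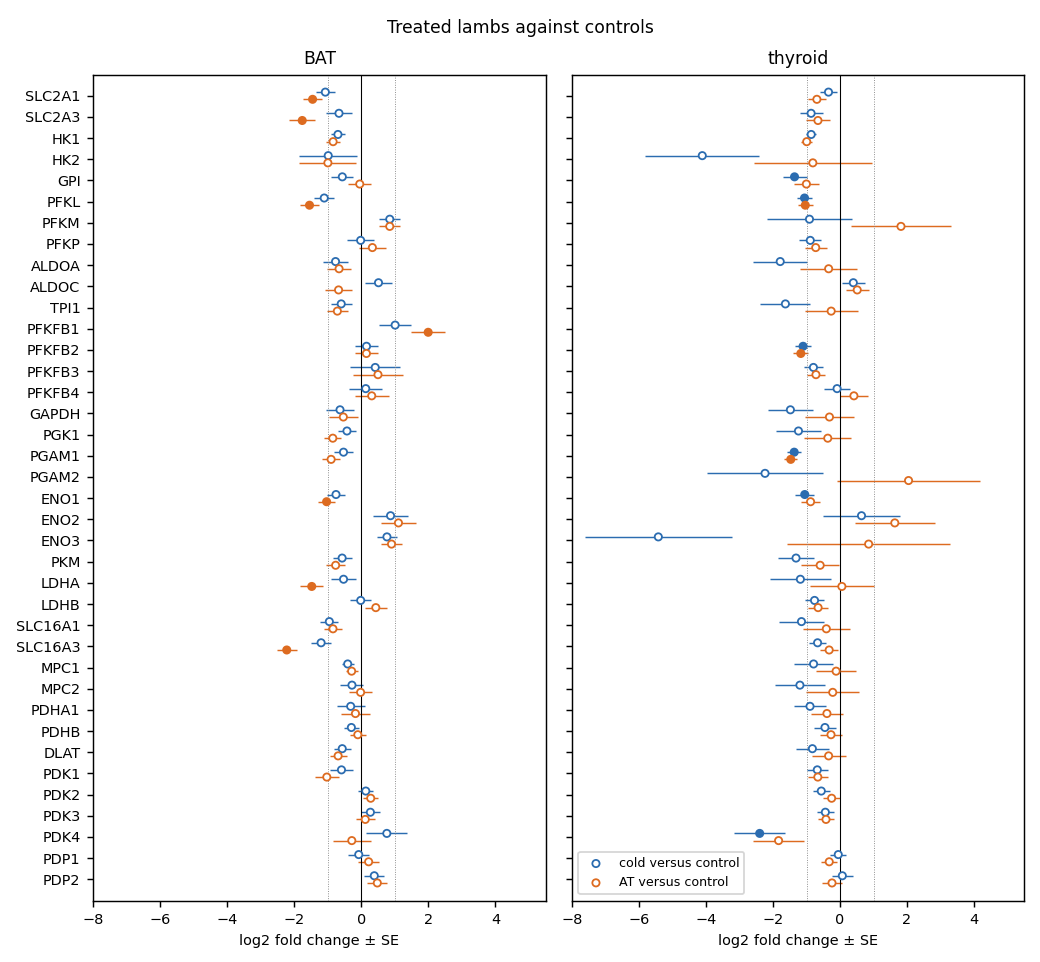
Log2 fold change of each member in cold (blue) and AT (orange) lambs against controls 1 and 3, with bars of 1 SE, in BAT and thyroid. Filled points are called members, and dotted lines mark a log2FC of -1 and 1. The widest bars in the thyroid belong to HK2, PFKM, PGAM2 and ENO3.

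The response to cold against AT was also compared between tissues, as the difference of the BAT and thyroid log2FC. No member was called, nor was any of 17021 genes (0%), and 12 members had an unadjusted p under 0.05, as had 7.87% of all genes, among them SLC16A3, at 1.35 ± 0.31 (adjusted p = 0.206). Without AT 3 and control 1 these were 4 members and 6.05% of all genes. DESeq2 called SLC16A3 alone among the members (adjusted p = 0.0279), against 0.106% of all genes called in that direction.

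Both tissues were put in one fit without a term for the lamb. There 13 of 38 members were called higher in BAT, against 25% of all genes, and 6 higher in the thyroid, against 14.2%. The median log2FC of BAT over thyroid was 0.81 for the members and 0.24 for all genes. PFKFB1 differed most, with a median of 506 per kilobase in BAT and 5.99 in the thyroid and a log2FC of 6.11 ± 0.67 (adjusted p = 1.67e-08). PFKFB4, the testis form, had a log2FC of 3.50 and SLC2A3 of 3.35. PFKP, the lactate and pyruvate transporter SLC16A1 (MCT1) and SLC16A3 followed, at 2.66, 2.69 and 1.69, and PDK4 was at 1.86 ± 0.42. GPI, TPI1, PGK1, LDHB, MPC2 and PDP2 were called higher in BAT with log2FC of at least 1 and at most 1.35. Except for LDHB (lowest value 1.08), these calls were lost in some alternative settings. The lowest log2FC there were 0.80 for GPI, 0.79 for TPI1, 0.79 for PGK1, 0.89 for MPC2 and 0.72 for PDP2.

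The thyroid had more PDP1, the calcium-responsive PDH phosphatase, at a log2FC of -2.19 ± 0.16 (adjusted p = 5.86e-12). Its median level was 159 per kilobase in BAT and 740 in the thyroid. PFKFB2 (-1.76 ± 0.17) and ALDOC (-1.93 ± 0.21) were higher there too. PFKFB3, the inducible form, did not pass the test, at 0.02, yet it was the main PFKFB transcript of the thyroid with a median share of 73.4%, while in BAT PFKFB1 (38.3%), PFKFB4 (35.6%) and PFKFB3 (24.9%) were closer. Of the 2 glucose transporters, SLC2A3 made up a median of 91.5% in BAT and 29.4% in the thyroid.

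The other 3 genes called higher in the thyroid were muscle forms, PFKM, PGAM2 and ENO3, and their values turned on the 2 libraries with muscle markers. ENO3 was at -2.29 ± 0.997 (adjusted p = 0.0439) with all 14 lambs and at 1.52 (adjusted p = 5.72e-06), called higher in BAT, without AT 3 and control 1. PFKM went from -1.67 to -0.47 (adjusted p = 0.0394) and PGAM2 from -3.88 to -1.96 (adjusted p = 2.27e-06). The same comparison with the lamb as a block called 16 members higher in BAT and 4 lower, against 25.5% and 14.1% of all genes, and ENO3 and PFKM were no longer called (log2FC 0.21 and -0.93).

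**Figure D5:**
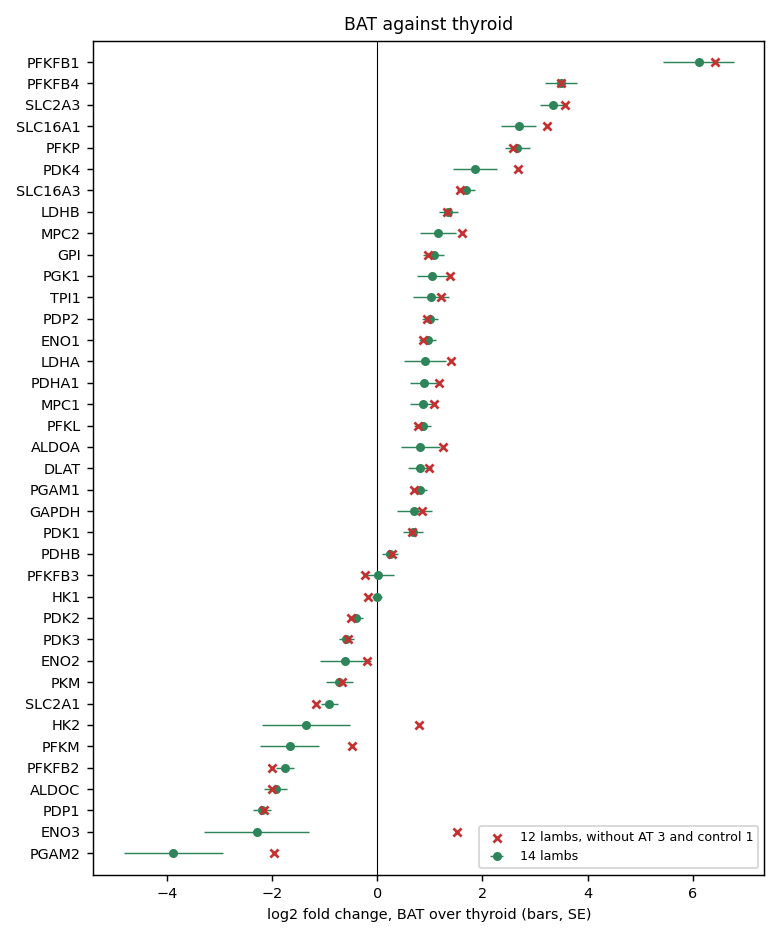
Log2 fold change of each member between BAT and thyroid, with bars of 1 SE, from 14 lambs (circles) and from 12 lambs without AT 3 and control 1 (crosses). Values above 0 are higher in BAT. ENO3 and HK2 cross 0 between the 2 sets, from -2.29 to 1.52 for ENO3.

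6 isozyme ratios, which do not depend on scaling between libraries, were tested between tissues within lambs by an exact sign-flip test over 14 lambs, with adjustment over the 6. The PDK4 to PDK2 ratio was higher in BAT in 14 of 14 lambs, by 2.71 ± 1.28 on the log2 scale (SD of the difference, adjusted p = 0.000244). PFKM to PFKL was lower in BAT in 14 of 14 lambs, by -1.62 ± 1.39, and PGAM2 to PGAM1 likewise, by -3.33 ± 2.04 (adjusted p = 0.000244 for each). HK2 to HK1, ENO3 to ENO1 and LDHA to LDHB did not pass, with LDHA to LDHB higher in BAT in 7 lambs and lower in 7. Without AT 3 and control 1, PFKM to PFKL was at -1.09 ± 0.34 and PGAM2 to PGAM1 at -2.67 ± 0.55, both lower in BAT in 12 of 12 lambs (adjusted p = 0.000977 for each). In the same lambs ENO3 to ENO1 was higher in BAT by 0.67 ± 0.57 (adjusted p = 0.00806) and HK2 to HK1 by 0.90 ± 1.06 (adjusted p = 0.0135). None of the 12 ratio tests of cold against AT passed after adjustment. The PDK4 to PDK2 ratio in BAT came to 3.27 ± 0.84 in cold and 1.93 ± 0.80 in AT lambs (exact permutation p = 0.026, adjusted p = 0.156).

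Among 28 other genes of the route, 26 were in the table and 21 were tested in BAT. None was called in cold against AT or cold against control, where 0.275% and 1.21% of all genes were. In AT against control 2 were called higher, against 2.86% of all genes. These were PCK1, an enzyme of gluconeogenesis and glyceroneogenesis, at 3.49 ± 1.03 (adjusted p = 0.0482), and FBP1. FBP1 reverses the phosphofructokinase step and was at 2.02 ± 0.46 (adjusted p = 0.0151). FBP1 had 36.9 and 67.3 normalised counts in the 2 controls and between 89.6 and 316 in AT lambs. In the thyroid, 22 were tested, and SLC2A8, PGM2 and TIGAR were called lower in cold and SLC2A8 and PGM2 in AT lambs. Of all genes 6.15% and 5.98% were called lower there. SLC2A8, a glucose transporter of internal membranes, was at -1.42 and -1.53. Of 16 regulators, 15 were tested in each tissue, and 2 were called lower in BAT of AT lambs, against 3.21% of all genes. EGLN3, a hydroxylase that is itself a target of the hypoxia-inducible factor, was at -1.51 ± 0.32 (adjusted p = 0.0118). PPARD was at -1.44 ± 0.28 (adjusted p = 0.00815). In the thyroid 3 regulators were called lower in cold lambs, MYC at -1.70, ESRRA at -1.36 and PPARGC1A at -1.23, and 2 in AT lambs, ESRRA at -1.07 and PPARGC1A at -1.20. These counts stand beside the same 6.15% and 5.98% of all genes. HIF1A, the hypoxia-inducible factor, was not called in either tissue.

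GAPDH, PGK1, TPI1, ENO1, LDHA and PKM have close copies elsewhere in mammalian genomes. Reads that map to several places were counted, so part of these counts may come from copies. GAPDH, used as an endogenous control for RT-qPCR in the study, was not called in any of the 6 treatment contrasts, and its log2FC ranged from -1.48 to -0.10. Without AT 3 and control 1 it was called lower in the thyroid, at -1.57 in cold and -1.45 in AT lambs against control 3.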

How the data were processed

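RNA from perirenal BAT and thyroid of 15 lambs was sequenced from oligo(dT)-selected, paired-end libraries on a BGISEQ-500. Per the labels and the submitters' processing notes, the authors used FastQC 0.11.9, Trimmomatic 0.39, STAR 2.7.7a on Oar_rambouillet_v1.0 and featureCounts (Subread 2.0.0), counting reads that map to several places. Whether strand was used is not given in the sources used here. The deposited values are raw counts per gene, 1 column per library, and 0 sample columns were left unmapped. Coordinates are those of the table, and chromosomes were named from the RefSeq gene symbols that each sequence carries.

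Counts were divided by size factors from 3 reference genes and tested with edgeR 4.0.16 (quasi-likelihood, R 4.3.3) after a filter of 10 reads in at least 10 libraries, over all genes of the table. A call needed an adjusted p below 0.05 and a log2FC of 1 or more in size. Each tissue was fitted with its cold, AT and control libraries together, without control 2, and both tissues jointly for comparisons between them. Group and treatment came from the sample labels. DESeq2 1.42.0, TMM and median-of-ratios scaling, other filters, all 3 controls and leaving out each library were alternatives. Omitting AT 3 and control 1 and adding TMM to the lamb block were chosen after seeing the data. PDK4 and isozyme ratios (log2, pseudocounts 1 and 0.5) were tested by two-sided exact permutation with SciPy 1.17.1. The scripts were tested on simulated data with known changes.

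Libraries with the same lamb number come from the same animal in both tissues. Over 14954 genes, the 2 libraries of a lamb correlated in their deviations from the group means by 0.000700 to 0.354 (median 0.22), above 0.1 in 13 of 14 lambs. The 2 controls share 1 value, 0.104, by construction, because deviations from a mean of 2 mirror each other. Correlations between different lambs are not given beside these, so the values alone do not test the pairing. No pair of libraries of a group agreed within sampling noise. Within a tissue, p-values measure the spread between these lambs. The main fit of both tissues had no term for the lamb and took the 2 libraries of a lamb as independent. Its p-values do not account for the pairing, whereas the fit with the lamb as a block and the sign-flip test do.

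The members, the lists of other genes and the tests were chosen with earlier results of these data known. All members could be named. Of the other genes of the route only called ones were, at most 4 per tissue, and of regulators and markers only those a result turns on.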

Additional observations from a re-analysis of the deposited data

Results flagged for a closer look

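In groups of 6 lambs, the highest or lowest library of each member was set against Dixon's 95% critical value. Of 152 groups of 6 tested, 25 passed, where chance alone gives about 1 in 20. 20 of them belonged to 1 library, thyroid AT 3. Outside the thyroid of AT lambs 5 of 114 passed, and none was in BAT of cold lambs. That is about the share that chance gives if the members are taken as independent.

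In BAT, AT 6 was the lowest AT lamb by a wide gap for 3 members. ENO3 was at 63.36 normalised counts against 119 to 154 in the other AT lambs, MPC2 at 469.8 against 1048 to 1619, and PDK2 at 410.2 against 579 to 679. These 3 values share 1 library and are not independent. AT 6 also had the lowest sums of the AT lambs for adipocyte markers (26980 against 52158 to 107690) and brown adipocyte markers (749 against 2507 to 16643). Its size factor, 1.83, was the largest in BAT, and its raw PDK2 count, 751, was the highest of the AT lambs. In the thyroid of cold lambs, ENO2, the neuronal enolase, was at 201 in cold 4 against 11.1 to 30.7, and PDK2 was at 1213 in cold 5 against 1539 to 1751.

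The other 20 were high values in thyroid AT 3, the library in which skeletal muscle markers made up 9.25% of counts. The muscle forms were HK2 at 2371, PFKM at 22873, PGAM2 at 10794 and ENO3 at 39178 normalised counts. The general glycolytic enzymes were GPI at 9517, ALDOA at 99816, TPI1 at 27727, GAPDH at 96899, PGK1 at 8761, ENO1 at 13180 and PKM at 25616. LDHA was at 21070 and the transporter SLC16A1 at 2044. Pyruvate entry genes were high as well, with MPC1 at 2838, MPC2 at 5857, PDHA1 at 5662, PDHB at 5084, DLAT at 2420, PDK2 at 3213 and PDK3 at 860.8. For ALDOA the other AT lambs lay between 8646 and 10442, and for MPC2 between 519 and 847.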

How the results depend on the processing

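Members called in BAT cold against AT rose from 0 to 2 with TMM, 2 with median-of-ratios scaling and 3 with DESeq2, and to between 0 and 1 with 1 library left out. In BAT cold against control the count went from 0 to 2 with TMM, 2 with median of ratios, 3 with DESeq2, 1 with only the 2 groups in the fit, 7 with all 3 controls, 11 with all 3 and TMM, and 11 when control 2 replaced either of the others, with a range of 0 to 3 when leaving out 1 library. In BAT AT against control, 7 became 17 with all 3 controls, 20 with TMM added, 19 and 18 with control 2 in place of control 1 and of control 3, and 2 to 8 with 1 library left out. In thyroid cold against control, 6 became 1 with TMM, 1 with median of ratios, 3 with all 3 controls, 1 with TMM added, 3 with control 2 in place of control 1, 17 with only the 2 groups, 17 without AT 3 and control 1, 10 when control 2 was added to that set, and 0 to 17 with 1 library left out. In thyroid AT against control, 3 became 1 with TMM, 1 with median of ratios, 1 with all 3 controls, 0 with TMM added, 1 with control 2 in place of control 1, 18 without AT 3 and control 1, 7 with TMM added, 11 with control 2 added, 5 with the adjusted p alone, and 0 to 17 with 1 library left out. BAT against thyroid went from 19 to 32 with the adjusted p alone and to 14 to 24 with 1 library left out, and the difference between tissues from 0 to 1 with DESeq2. Isozyme ratios that differed between tissues went from 3 to 5 without AT 3 and control 1, and without the replicate block stayed at 3. PDK4 in BAT cold against control reversed to -1.57 with all 3 controls, -1.77 with TMM added, and -2.02 and -2.06 with control 2 in place of control 1 and of control 3, and BAT AT against control to 0.13 without control 1. PDK4 in thyroid cold against AT reversed to 0.10 without AT 3, 0.10 without AT 3 and control 1, 0.0577 with TMM added and 0.0936 with control 2 added. Against controls it reversed to 0.12 (cold) and 0.0652 (AT) without AT 3 and control 1 with TMM, and to 0.22 (AT) without control 1. With 1 library left out, PDK4 ranged from -0.75 to 0.13 in BAT AT against control, -0.75 to 0.10 in thyroid cold against AT and -2.63 to 0.22 in thyroid AT against control. Its exact test gave 0.999 to 1.51 in BAT and -0.48 to 0.17 in the thyroid with 1 library left out. ENO3 between tissues reversed to 0.21 with the replicate block (lamb), 0.0180 with TMM added and 1.52 without AT 3 and control 1, and the ENO3 to ENO1 ratio to 0.67 without both. With 1 library left out, ratios in cold against AT ranged from -0.13 to 0.58 (HK2 to HK1, BAT), -0.76 to 0.79 (HK2 to HK1, thyroid), -0.40 to 0.16 (LDHA to LDHB, thyroid) and -0.18 to 0.26 (PDK4 to PDK2, thyroid), and between tissues from -0.18 to 0.60 (HK2 to HK1) and -0.52 to 0.14 (ENO3 to ENO1). The cause of these changes was not tested, other than fewer or other libraries by construction. DESeq2 gave no adjusted p for PFKM, TPI1, ENO3 and PGAM2 between tissues. With 2 controls the comparisons against controls are the least certain, and with 1 left the lone control is assumed to vary like the other groups. Counts of called members in this section, and calls with 1 library left out, stand without the share of all genes. Where that share is not given above, they do not set the members apart from other genes. Between tissues 73.1% of all genes had an unadjusted edgeR p under 0.05 in the main fit.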
